A study of Mus musculus with 24 samples.

Results

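The Cyp4a genes encode cytochrome P450 enzymes of the endoplasmic reticulum that hydroxylate fatty acids at the terminal (omega) carbon. The hydroxylated acids are oxidised further to dicarboxylic acids and shortened in peroxisomes, a route that takes more of the hepatic fatty acid load in fasting and fatty liver. In mouse liver, Cyp4a10 and Cyp4a14 are classic targets of PPARα, the nuclear receptor for fatty acids that binds DNA with RXR, whereas Cyp4a12a is known as an androgen- and growth hormone-dependent gene of male liver and kidney and makes the eicosanoid 20-HETE from arachidonic acid. Cyp4a31 and Cyp4a32 are close relatives of Cyp4a10 with less well described roles. The genes described here were chosen by symbol and are 6 of the 24704 named genes on the array: Cyp4a10 (Entrez gene 13117), Cyp4a14 (13119), Cyp4a31 (666168), Cyp4a32 (100040843), Cyp4a12a (277753) and Cyp4a12b (13118). Each was read by 1 feature. They lie together on chromosome 4, where the RefSeq gene order is Cyp4a29, Cyp4a12a, Cyp4a12b, Cyp4a30b, Cyp4a14, Cyp4a10, Cyp4a31 and Cyp4a32, with pseudogenes in between.

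RNA of whole mouse liver was hybridised to 24 Affymetrix MoGene 2.0 ST arrays, in 8 groups of 3 that combine genotype, diet and gender. HepCAV1ko mice are homozygous for a floxed Cav1 allele and carry 1 copy of Alb-Cre, whose albumin promoter restricts recombination largely to hepatocytes, so other liver cells keep caveolin-1. HepCAV1wt littermates lack Cre and carry the floxed allele too. Males and females of both genotypes received either control diet or the methionine- and choline-deficient (MCD) diet, which causes steatosis and inflammation, for 4 weeks from 8 weeks of age, and livers were taken at 12 weeks. The labels number the arrays within a group without saying that each is a mouse of its own, so p-values measure the spread between arrays, which may be partly technical.

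All values below are log2 expression on the scale of the robust multi-array average (RMA). A step of 1 is a doubling of signal, and the median over all genes and arrays was 3.83. Differences were tested with limma in 1 fit of all 8 groups, adjusted over all 24704 genes by the method of Benjamini and Hochberg, and a gene is called changed at an adjusted p under 0.05. Standard errors (SE) and 95% intervals come from that fit, and SD is over the 3 arrays of a group. No detection calls were used, so values near or below the median carry little information on level. Probes of such close relatives may bind each other's transcripts. Probe sequences were not analysed here, so how far a change shared by 2 relatives is 1 signal picked up by both features was not tested, and levels are not compared between genes.

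The labelled gender was matched by Xist and by the Y-chromosomal Eif2s3y in 24 of 24 arrays. Cav1, measured in whole liver, ranged from 3.84 to 4.94 in the 6 control-fed HepCAV1wt arrays and from 3.51 to 4.12 in the 6 control-fed HepCAV1ko arrays, close to the median of all genes and overlapping, and from 3.95 to 4.41 in the MCD-fed arrays. The summed level of 6 hepatocyte markers lay between 15.19 and 15.43 in every array and 0 of the 6 changed in any of the 4 diet comparisons. Macrophage markers moved with the diet: of 6 on the array, 2 rose in males and 3 in females of HepCAV1wt, and 4 in males and 1 in females of HepCAV1ko, and their summed level went from 9.29 to 10.03 on control diet to 9.49 to 10.62 on MCD diet. Of 6 stellate cell markers 1, 2, 3 and 0 rose in the same order, and of 5 endothelial markers 1, 0, 1 and 1. Of 4 cholangiocyte markers 0 rose in each. Of all genes, 2.28%, 2.59%, 3.62% and 0.765% rose and 2.09%, 2.34%, 3.02% and 0.878% fell in that order. With genotypes averaged, 3 macrophage markers rose and 1 fell in females. The part of these other cell types in the Cyp4a results was not tested. In bulk liver, fewer cells of a type and less RNA per cell cannot be told apart. Kidney proximal tubule, the other main site of Cyp4a expression, left little trace: its 5 markers summed to 5.21 to 5.54 in every array.

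**Figure D1:**
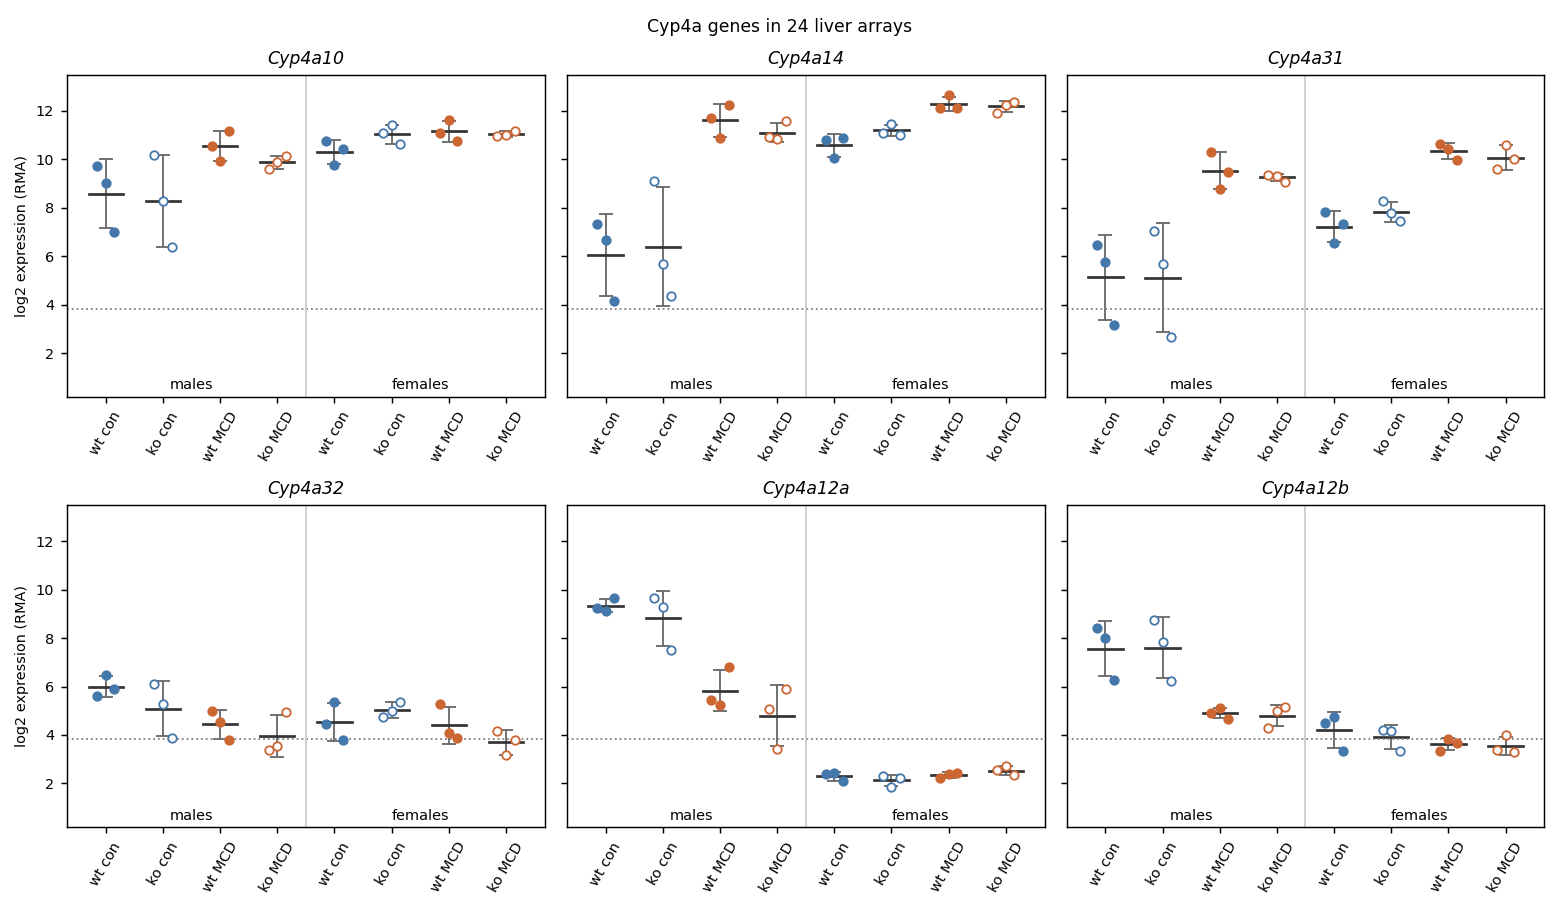
Log2 RMA expression (vertical axis) of the 6 Cyp4a genes in each array, by genotype (filled points, HepCAV1wt; open points, HepCAV1ko), diet (blue, control; orange, MCD) and gender. Bars are mean ± SD of 3 arrays and the dotted line is the median of all genes, 3.83. Cyp4a10, Cyp4a14 and Cyp4a31 are lowest in control-fed males, whereas Cyp4a12a and Cyp4a12b are highest there.

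In males, the MCD diet moved the family in opposite directions. Cyp4a14 rose 47.1-fold in HepCAV1wt and 26.4-fold in HepCAV1ko males, Cyp4a31 rose 21.1-fold and 17.5-fold, Cyp4a12a fell by 3.51 and 4.02 log2 units and Cyp4a12b by 2.66 and 2.81. Thus 2 of 6 genes rose and 2 fell in males of each genotype, where 2.28% of all genes rose and 2.09% fell in HepCAV1wt and 3.62% and 3.02% in HepCAV1ko males. With both genotypes averaged, all 6 genes passed the test in males, 3 up and 3 down, against 6.85% of all genes up and 6.09% down. In females only Cyp4a31 passed it, upward, as did 4.31% of all genes.

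Cyp4a14, an enzyme that in mouse liver is strongly induced by PPARα activators and by fasting, had the widest span of the family, 8.49 log2 units over the 24 arrays. In control-fed males it read 7.33, 6.67 and 4.14 in HepCAV1wt and 9.12, 5.70 and 4.34 in HepCAV1ko. On MCD diet, males read 11.71, 10.88 and 12.23 in HepCAV1wt and 10.92, 10.83 and 11.56 in HepCAV1ko. Every MCD-fed male array was above every control-fed male array, as 20.7% of all genes in HepCAV1wt and 23.3% in HepCAV1ko males had groups without overlap, and the control-fed arrays were spread over a wide range. The rise was 5.56 in HepCAV1wt (adjusted p = 1.7e-04) and 4.72 in HepCAV1ko males (adjusted p = 6.3e-04), with an SE of 0.79. In control-fed females the values were already 10.79, 10.04 and 10.88 in HepCAV1wt and 11.10, 11.46 and 11.00 in HepCAV1ko, and on MCD diet 12.12, 12.64 and 12.12 in HepCAV1wt and 11.92, 12.26 and 12.38 in HepCAV1ko. The female arrays of the 2 diets did not overlap, as for 20.7% of all genes in HepCAV1wt and 16.5% in HepCAV1ko females, but the differences of 1.72 (95% interval 0.079 to 3.37, adjusted p = 0.262) and 1.00 (−0.65 to 2.64, adjusted p = 0.744) did not pass the test. The HepCAV1wt difference passed in a fit of those 2 groups alone (adjusted p = 0.00900). Averaged over genotypes the female difference was 1.36 (SE 0.56, adjusted p = 0.158), and it passed (adjusted p = 0.0278) once the 2 control-fed male arrays numbered 3, which enter the shared estimate of spread, were left out, or without HepCAV1ko control-fed male 1 (adjusted p = 0.0280).

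Cyp4a31 rose in both sexes. Control-fed males read 6.47, 5.76 and 3.15 in HepCAV1wt and 7.03, 5.67 and 2.66 in HepCAV1ko, and MCD-fed males 10.30, 8.79 and 9.48 and 9.37, 9.31 and 9.07. In males the groups of each genotype were fully apart, as for 20.7% of all genes in HepCAV1wt and 23.3% in HepCAV1ko. The rises were 4.40 (adjusted p = 0.00131) and 4.13 (adjusted p = 0.00181) at an SE of 0.78. Control-fed females read 7.81, 6.54 and 7.31 in HepCAV1wt and 8.27, 7.76 and 7.46 in HepCAV1ko, and MCD-fed females 10.64, 10.41 and 9.97 and 9.61, 10.61 and 10.00. Here too no arrays of the 2 diets overlapped, as for 20.7% of all genes in HepCAV1wt and 16.5% in HepCAV1ko females. The female rise was 3.12 (SE 0.78, adjusted p = 0.0206) in HepCAV1wt, and 1 of 6 Cyp4a genes was called there where 2.59% of all genes rose. Without HepCAV1wt control-fed female 2 or 3 or MCD-fed female 1 or 2 the adjusted p lay between 0.0518 and 0.0914. In HepCAV1ko females the difference of 2.24 (95% interval 0.63 to 3.86, adjusted p = 0.196) did not pass, where 1.64% of all genes did. It passed in a limma fit of those 2 groups alone (adjusted p = 0.0131) and without the 2 control-fed male arrays numbered 3 (adjusted p = 0.00372). Averaged over genotypes the female rise was 2.68 (SE 0.55, adjusted p = 0.00271).

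Cyp4a10, the best known PPARα target of the family, responded less. In males it read 9.74, 9.03 and 6.99 in HepCAV1wt and 10.16, 8.29 and 6.38 in HepCAV1ko on control diet, and 10.53, 9.94 and 11.16 and 9.59, 9.89 and 10.15 on MCD diet. The HepCAV1ko groups overlapped, since control-fed array 1 was as high as the MCD-fed arrays. Neither genotype passed alone (1.95, adjusted p = 0.101 in HepCAV1wt and 1.60, adjusted p = 0.166 in HepCAV1ko males, SE 0.65). Both passed without HepCAV1ko control-fed male 1 (1.95, adjusted p = 0.0340 and 2.54, adjusted p = 0.0124), and the HepCAV1wt difference also without HepCAV1ko control-fed male 3 (adjusted p = 0.0319). The average over genotypes was 1.78 (SE 0.46, adjusted p = 0.0115), and it fell to 0.91 (adjusted p = 0.0676) without the 2 control-fed male arrays numbered 3. Females ranged from 9.76 to 11.42 on control diet and from 10.77 to 11.63 on MCD diet, with differences of 0.86 in HepCAV1wt (95% interval −0.49 to 2.21) and 0.0046 in HepCAV1ko (−1.35 to 1.35).

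Cyp4a32, the last gene of the cluster, lies beside Cyp4a31 but was not called higher on MCD diet in any comparison. It is the only one of the 6 with a promoter in the RefSeq table used here (GRCm38.p6). The stretch just before its annotated start, chr4:115600688-115600926 on the plus strand, is printed below. Without promoters of the other members it cannot be set against theirs, and a tie to the diet response was not tested. Capitals mark CCCTCCCA, which begins 48 bases before the start of the gene in the RefSeq gene table and 59 bases before the start site on which the promoter window is placed.

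Cyp4a32 promoter: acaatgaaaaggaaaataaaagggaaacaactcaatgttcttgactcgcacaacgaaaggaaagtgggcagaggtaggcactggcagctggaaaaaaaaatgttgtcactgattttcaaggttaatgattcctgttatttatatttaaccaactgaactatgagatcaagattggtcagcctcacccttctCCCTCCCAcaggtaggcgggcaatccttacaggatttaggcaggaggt

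The same 8 letters occur in the promoter windows of Cyp4a29 and Cyp4a30b, neighbours in the cluster that were below 3.83 in 24 of 24 arrays, and in 4.66% of 32851 promoter windows on either strand; the block was picked after these sequences were seen. The half-site AGGTCA and the repeat AGGTCANAGGTCA, a strict form (DR1) of the element bound by PPARα with RXR, were searched on both strands and had 0 matches in the Cyp4a32 window, and 16.3% and 0.0396% of all windows hold them. No match says only that these letters are not in this window.

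Control-fed males had 5.61, 6.47 and 5.91 in HepCAV1wt and 6.10, 5.26 and 3.86 in HepCAV1ko for Cyp4a32, and MCD-fed males 5.0, 4.51 and 3.79 and 3.39, 3.54 and 4.94. In males only the HepCAV1wt groups were apart, as for 20.7% of all genes. The difference averaged over genotypes, −1.34 (SE 0.36, adjusted p = 0.0164), passed the test, whereas those within a genotype, −1.56 (adjusted p = 0.0979) and −1.12 (adjusted p = 0.240), did not. The averaged fall was no longer called without HepCAV1ko control-fed male 1 (−1.08, adjusted p = 0.0536) or MCD-fed male 1 (−1.20, adjusted p = 0.0533), or with all values below 3.83 raised to it (adjusted p = 0.0541). Control-fed females read 4.46, 5.34 and 3.78 in HepCAV1wt and 4.72, 5.0 and 5.37 in HepCAV1ko, and MCD-fed females 5.28, 4.06 and 3.86 and 4.16, 3.16 and 3.78. The HepCAV1ko female groups did not overlap, as for 16.5% of all genes, whereas those of HepCAV1wt did. The differences were −0.13 (95% interval −1.20 to 0.94) in HepCAV1wt and −1.34 (−2.41 to −0.27, adjusted p = 0.270) in HepCAV1ko females, and their average was −0.73 (−1.49 to 0.025), none called. All neighbours in the order of the 8 group means overlapped for this gene.

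Cyp4a12a and Cyp4a12b, the male-type members, went down. Cyp4a12a in control-fed males read 9.26, 9.11 and 9.64 in HepCAV1wt and 9.63, 9.29 and 7.50 in HepCAV1ko, and in MCD-fed males 5.44, 5.24 and 6.79 and 5.07, 3.42 and 5.89. The lowest control-fed array was above the highest MCD-fed one. Of all genes, 20.7% in HepCAV1wt and 23.3% in HepCAV1ko males had diet groups without overlap. It fell by 3.51 in HepCAV1wt (adjusted p = 1.6e-04) and by 4.02 in HepCAV1ko males (adjusted p = 2.0e-05), with an SE of 0.50, or 11.4-fold and 16.2-fold. All 12 female arrays lay between 1.84 and 2.71, below the median of all genes on both diets, where a lower level would hardly be measurable.

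Cyp4a12b, a near copy of Cyp4a12a, read 8.41, 7.99 and 6.28 in HepCAV1wt and 8.76, 7.82 and 6.24 in HepCAV1ko control-fed males, and 4.92, 5.10 and 4.67 and 4.29, 4.97 and 5.14 in MCD-fed males. It too was lower on MCD diet with no overlap, as for 20.7% of all genes in HepCAV1wt and 23.3% in HepCAV1ko males. The decreases were 2.66 (adjusted p = 0.00317) and 2.81 (adjusted p = 0.00149) at an SE of 0.52. Females read from 3.34 to 4.74 on control diet and from 3.28 to 3.99 on MCD diet, with a difference averaged over genotypes of −0.47 (95% interval −1.23 to 0.28). The 4 falls of this pair in males kept their direction and call in the fits with other moderation, scaling, filters, floors and left-out arrays, and only the simple 2-group test named in the study's methods, once adjusted, did not call them.

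**Figure D2:**
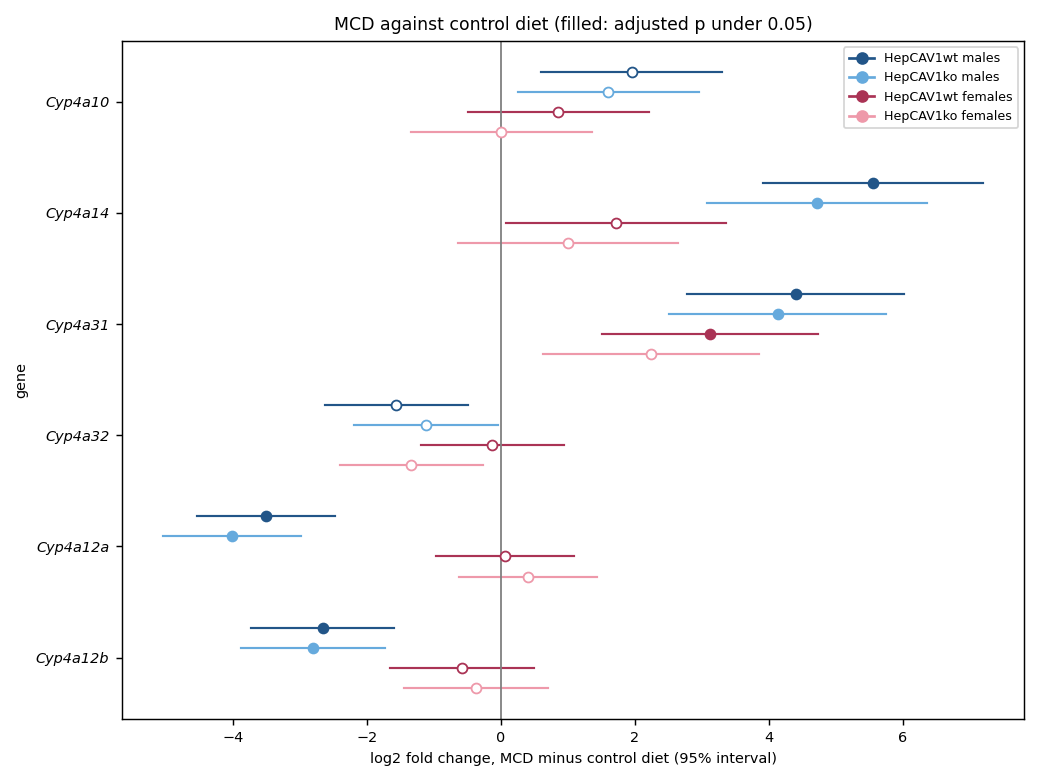
Log2 fold change, MCD minus control diet (horizontal axis), of each Cyp4a gene (vertical axis) in the 4 combinations of genotype and gender, with 95% intervals from the fit. Filled points passed an adjusted p of 0.05: Cyp4a14 and Cyp4a31 to the right and Cyp4a12a and Cyp4a12b to the left in males, and only Cyp4a31 in HepCAV1wt females.

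On control diet the sexes differed in the opposite sense to the diet. Males had more Cyp4a12a than females by 7.04 (SE 0.50, adjusted p = 3.9e-09) in HepCAV1wt livers and by 6.69 (adjusted p = 7.8e-09) in HepCAV1ko, and more Cyp4a12b by 3.36 (SE 0.52, adjusted p = 5.6e-04) and 3.70 (adjusted p = 1.4e-04). With values under the median raised to it, the Cyp4a12a difference was 5.51 and 4.98, still called. Males had less Cyp4a14, by −4.52 (SE 0.79, adjusted p = 0.00245) in HepCAV1wt and −4.80 (adjusted p = 0.00107) in HepCAV1ko. No male array reached the lowest female array on control diet, as 16.5% of all genes in HepCAV1wt and 15.6% in HepCAV1ko had no overlap. Counted together, 2 of 6 Cyp4a genes were higher in males and 1 lower in HepCAV1wt, where 0.563% and 0.708% of all genes were, and 2 were higher and 2 lower in HepCAV1ko, where 0.672% and 0.81% were. The additional one in HepCAV1ko was Cyp4a10, lower in males by −2.76 (SE 0.65, adjusted p = 0.0315). That call was lost in 11 of the other fits, among them those without HepCAV1ko control-fed male 3 (−1.82, adjusted p = 0.236), male 2 (−2.77, adjusted p = 0.0856) or any 1 of the 3 HepCAV1ko control-fed females (adjusted p from 0.0576 to 0.151). Cyp4a31 was lower in males by −2.09 (adjusted p = 0.265) and −2.71 (adjusted p = 0.0976), with no overlap of arrays, as for 16.5% and 15.6% of all genes, but without passing the test. The HepCAV1ko difference passed without HepCAV1ko control-fed male 1 (−3.67, adjusted p = 0.0117) or HepCAV1wt control-fed male 3 (adjusted p = 0.0469).

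On MCD diet, 1 Cyp4a difference between the sexes was called: Cyp4a12a in HepCAV1wt, 3.47 higher in males (SE 0.50, adjusted p = 8.0e-04), where 0.0891% of all genes were higher in males. With values under the median raised to it, this became 1.99 (adjusted p = 0.293). In HepCAV1ko the male excess was 2.26 (95% interval 1.24 to 3.29, adjusted p = 0.0655), 0 of 6 Cyp4a genes passed where 0.202% of all genes did, and 2 had an unadjusted p under 0.05. Without the MCD-fed HepCAV1ko male 2, the lowest of its group, the excess was 2.95 (adjusted p = 0.00356). Leaving out HepCAV1ko control-fed male 3 or HepCAV1wt MCD-fed male 3, which are not part of that comparison but enter its shared spread, gave an adjusted p of 0.0177 and 0.0401. Cyp4a14 differed between the sexes by −0.69 (95% interval −2.33 to 0.96) in HepCAV1wt and −1.08 (−2.73 to 0.56) in HepCAV1ko, neither called.

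**Figure D3:**
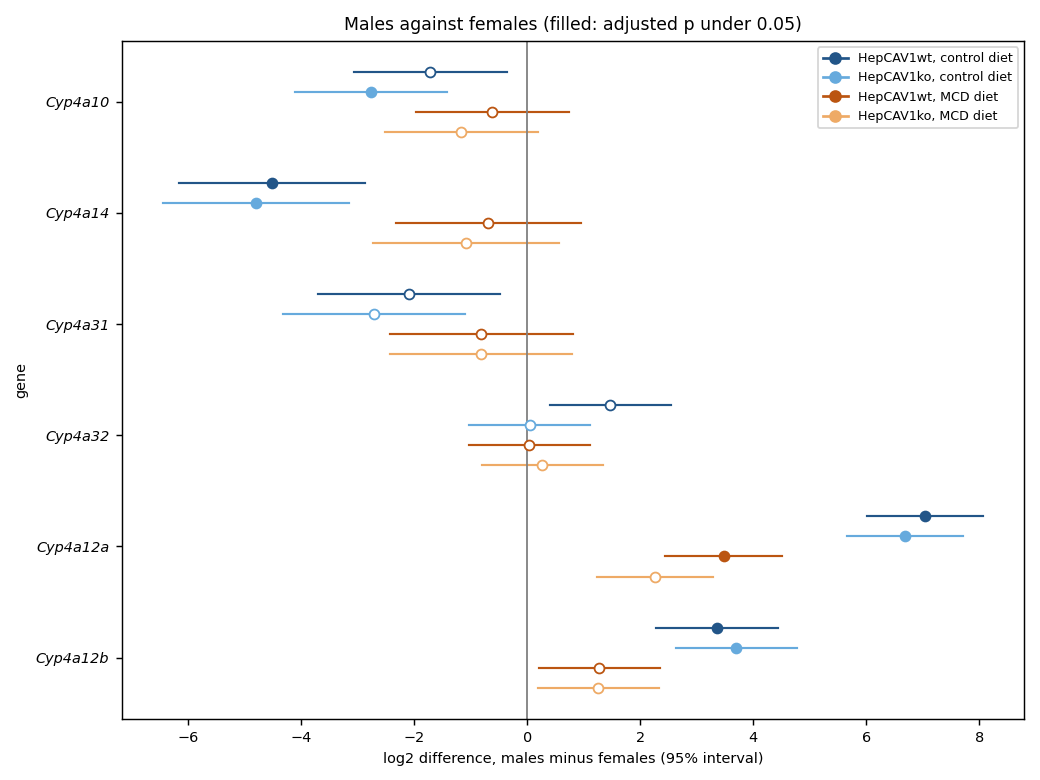
Log2 difference, males minus females (horizontal axis), of each Cyp4a gene (vertical axis) by genotype and diet, with 95% intervals from the fit; filled points passed an adjusted p of 0.05. Points of the MCD diet (orange) lie nearer 0 than those of the control diet (blue) in both genotypes for every gene but Cyp4a32, where this holds in HepCAV1wt only. For Cyp4a10 and Cyp4a31 the difference in diet response between the sexes, averaged over genotypes, was not called.

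Whether the diet response differed between the sexes was tested directly, as the male minus the female diet effect averaged over genotypes. It differed for 3 of 6 Cyp4a genes, against 0.534% of all genes. Cyp4a12a had a male minus female response of −4.00 (SE 0.50, adjusted p = 7.2e-05). For Cyp4a14 it was 3.78 (SE 0.79, adjusted p = 0.0244), and for Cyp4a12b −2.26 (SE 0.52, adjusted p = 0.0486). The Cyp4a12a difference was called in every alternative fit. All 12 female arrays of that gene lay below the median of all genes, where a fall would hardly be measurable. Its difference therefore rests on the male values. The Cyp4a14 call was lost without any of 6 single arrays (adjusted p up to 0.0565), namely HepCAV1wt control-fed female 3, MCD-fed male 3 and MCD-fed female 1 and HepCAV1ko control-fed male 2, control-fed female 2 and MCD-fed male 3, and the Cyp4a12b call without any of 21 (adjusted p up to 0.108). The arrays whose omission did not remove that call were HepCAV1wt control-fed male 3 and female 2 and HepCAV1ko control-fed male 3. Cyp4a10 (1.35, 95% interval −0.0031 to 2.70), Cyp4a31 (1.59, −0.031 to 3.20) and Cyp4a32 (−0.61, −1.68 to 0.46) did not pass. Taken within a genotype, only Cyp4a12a passed, at −3.57 in HepCAV1wt (adjusted p = 0.0307) and −4.42 in HepCAV1ko (adjusted p = 0.00396), with 0.182% and 0.174% of all genes. These contrasts use the same arrays as the diet and gender comparisons above and are not separate evidence.

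Loss of Cav1 in hepatocytes was not accompanied by a called change in any Cyp4a gene. Over 24 comparisons, 6 genes in 4 combinations of diet and gender, limma called 0, and the differences ranged from −1.03 to 0.74 with 95% intervals reaching from −2.15 to 2.26. Differences of a few fold in either direction were therefore not detectable with 3 arrays a group. A single one had an unadjusted p under 0.05, Cyp4a12a in MCD-fed males (−1.03, adjusted p = 1.00). Of all genes, 0.00405% were called in control-fed males and 0% in the other 3 comparisons. The diet effect itself differed between genotypes in 0 of 12 tests, with differences from −1.21 to 0.45 and 0 at an unadjusted p under 0.05. For that contrast 0.00405% of all genes were called in males and 0% in females, so the count does not set the Cyp4a genes apart.

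Relatives within the family responded by different amounts. For each pair the log2 difference between 2 genes was taken within each array, the MCD minus control difference was averaged over genotypes within a gender, and diet labels were permuted within genotype, which allows 400 assignments and a smallest two-sided exact p of 0.005. With Benjamini-Hochberg adjustment over 30 pairs, 25 passed (13 of 15 in males and 12 of 15 in females). In males 3 genes rose and 3 fell in the averaged diet test above, on the same arrays. A pair of a riser and a faller was therefore largely set to pass and is not separate evidence. Of the 12 in females, 3 involve Cyp4a12a, which was below the median of all genes in all 12 female arrays, and they therefore rest on the partner's values. Without that gene 9 of 10 female pairs passed. Several of these involve Cyp4a12b or Cyp4a32, which were below the median in 6 and 3 of the 12 female arrays. In males Cyp4a10 responded less than Cyp4a14 by −3.36 and less than Cyp4a31 by −2.49 (adjusted exact permutation p = 0.00833 for both), the smallest value this test can give here. The difference between Cyp4a14 and Cyp4a31 did not pass in males (0.87, adjusted exact p = 0.0778), but in females Cyp4a14 responded less than Cyp4a31, by −1.32 (adjusted exact p = 0.00833). That between Cyp4a12a and Cyp4a12b did not pass in males either (−1.03, adjusted exact p = 0.155), and in females (0.70, adjusted exact p = 0.0438) it rests on Cyp4a12a values below the median of all genes. Of the relatives of Cyp4a32, Cyp4a10 exceeded its response by 3.12 and Cyp4a31 by 5.61 in males (adjusted exact p = 0.00833). Probes shared between relatives would shrink such differences, and their extent was not tested.

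Part of the spread within groups was shared by several members. The 6 control-fed male arrays held 84.0% of the within-group sum of squares of Cyp4a10, 89.6% of that of Cyp4a14, 83.9% of that of Cyp4a31 and 69.7% of that of Cyp4a12b, but 36.3% and 35.6% for Cyp4a12a and Cyp4a32. Control-fed male 3 of both genotypes was the lowest of its group in Cyp4a10, Cyp4a14, Cyp4a31 and Cyp4a12b. For Cyp4a12a this held in HepCAV1ko (7.50) but not in HepCAV1wt, where array 3 was the highest (9.64). Over the 24 arrays, deviations from the group mean correlated at Pearson's r = 0.96 between Cyp4a10 and Cyp4a14, 0.91 between Cyp4a10 and Cyp4a31 and 0.87 between Cyp4a14 and Cyp4a31. Cyp4a12b, whose group means ran against theirs, deviated with them (0.77, 0.73 and 0.77 in the same order), and less with Cyp4a12a (0.29). These are descriptions over points that share arrays and, in part, perhaps probes.

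Other transcripts of the same 6 livers were set beside them, chosen after the data were seen. HepCAV1ko control-fed male 3 had 13.10 of the acute-phase transcript Saa1 and 12.66 of Lcn2, an iron-sequestering protein of inflammation, against 6.62 to 8.96 and 5.20 to 8.37 in the other 5 control-fed males. HepCAV1wt control-fed male 3 had 8.85 of Saa1, inside that range, and the 8.37 of Lcn2. The mean of 28 PPARα targets outside the Cyp4a family was 7.80, 7.67 and 7.90 in the HepCAV1wt and 7.92, 7.47 and 7.30 in the HepCAV1ko control-fed males, so array 3 was the lowest of its group in HepCAV1ko and the highest in HepCAV1wt. Deviations from group means correlated with those of Lcn2 at r = −0.77 for Cyp4a10, −0.73 for Cyp4a14, −0.82 for Cyp4a31 and −0.61 for Cyp4a12b over 24 arrays, and less strongly with those of Saa1, at −0.59, −0.56, −0.64 and −0.45. With the mean of the PPARα targets r was 0.49, 0.54, 0.40 and 0.16 for the same genes. The pattern was not confined to them. For Cyp4a12a r was −0.53 with Lcn2, −0.53 with Saa1 and 0.50 with the PPARα target mean. For Cyp4a32 these were −0.45, −0.46 and 0.26. All of these values include HepCAV1ko control-fed male 3, and r without it was not computed. The part of inflammation, or of an array, in the low values was not tested. Without both arrays the male rises were 4.61 and 3.70 for Cyp4a14 and 3.42 and 2.90 for Cyp4a31 in HepCAV1wt and HepCAV1ko, and the falls of Cyp4a12a were −3.36 and −4.67, all called.

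**Figure D4:**
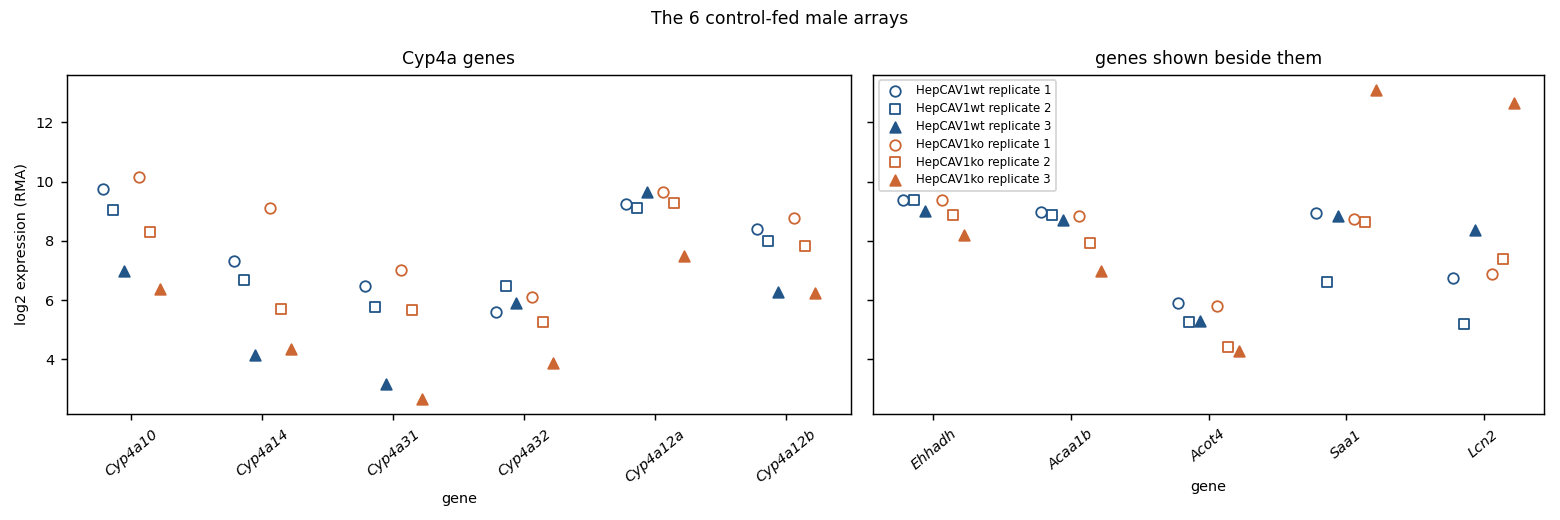
Log2 RMA expression (vertical axis) of the 6 Cyp4a genes (left) and of 3 peroxisomal or acyl-CoA genes and 2 inflammation transcripts (right) in the 6 control-fed male arrays. Blue is HepCAV1wt and orange HepCAV1ko, the marker shape gives the replicate number, and filled triangles are replicate 3, lowest of its group in Cyp4a10, Cyp4a14, Cyp4a31 and Cyp4a12b.

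Of 28 PPARα targets outside the family on the array (of 32 listed), 7 rose in males and 8 in females of HepCAV1wt, 8 in males and 4 in females of HepCAV1ko, and 0 fell. Of all genes, 2.28%, 2.59%, 3.62% and 0.765% rose in the same order and 2.09%, 2.34%, 3.02% and 0.878% fell. The median changes of the 28 targets were 0.20, 0.29, 0.26 and 0.11, against −0.0053, −0.017, −0.016 and −0.0059 for all genes. Fgf21, a hepatic fasting hormone, rose by 3.49, 3.89, 3.44 and 2.65 in that order, and Pdk4, which restrains glucose oxidation, by 2.82, 2.24, 2.36 and 1.84. Acot2, a mitochondrial acyl-CoA thioesterase, and the fatty acid transporter Cd36 also rose in all 4 comparisons, by 1.18 to 2.93 and 1.25 to 2.43. These 4 were named because they were called in the most diet comparisons, so their calls in females follow from that choice. Whether their responses differ from that of Cyp4a14 was not tested.

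Of 24 genes of omega-oxidation, its redox partners and peroxisomal transport on the array (of 28 listed), 3, 2, 3 and 1 rose and 2, 3, 3 and 1 fell in the same order, beside 2.28%, 2.59%, 3.62% and 0.765% of all genes that rose and 2.09%, 2.34%, 3.02% and 0.878% that fell. The bile acid and very long chain acyl-CoA synthetase Slc27a5 fell in all 4, by 0.99, 1.54, 1.34 and 1.01. Abcd2, a peroxisomal importer of very long chain acyl-CoA, rose in males by 2.29 and 2.31 and read 0.17 and 0.028 in females, not called. Aldh1a1, a retinal and fatty aldehyde dehydrogenase, rose in 3 of the 4 comparisons (by 0.73, 0.80 and 0.68, and 0.46 in HepCAV1wt females, not called). Scp2, a peroxisomal lipid carrier and thiolase, fell by 0.47 and 0.54 in males and rose by 0.74 in HepCAV1wt females, with 0.35 in HepCAV1ko females, not called.

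Among 27 regulators on the array (of 30 listed), 2, 1, 1 and 1 rose and 3, 3, 4 and 2 fell, beside the same shares of all genes. Ghr, the growth hormone receptor, fell in all 4 comparisons by 0.96, 0.92, 1.02 and 0.68. Pparg, a lipogenic relative of Ppara, rose in females by 1.86 and 1.39 and read 0.86 and 0.71 in males, not called. Trim24, a nuclear receptor co-regulator, rose in males by 1.61 and 1.95 and read 0.29 and −0.018 in females, not called. Nr3c1, the glucocorticoid receptor, fell in HepCAV1wt females (by 0.53) and HepCAV1ko males (by 0.49) and read −0.32 in both other groups, not called. Median changes were −0.011, 0.029, 0.074 and −0.077 for the omega-oxidation genes and −0.17, −0.10, −0.12 and −0.11 for the regulators, beside −0.0053, −0.017, −0.016 and −0.0059 for all genes.

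Of the remaining 17 Cyp4 genes on the array, 9 lay below the median of all genes in 24 of 24 arrays, and 0 of the 17 were called higher on MCD diet in any comparison. In the same order of groups, 5, 4, 4 and 3 of them fell, against 2.09%, 2.34%, 3.02% and 0.878% of all genes. The 5 in HepCAV1wt males include Cyp4a30b (2.27 to 1.79, adjusted p = 0.0387). It was below the median in 24 of 24 arrays, where values carry little information. Cyp4f14 and Cyp4f13, hydroxylases of leukotriene B4 and related lipids, fell in all 4, by 1.19, 2.05, 1.53 and 1.65 for Cyp4f14 (SE 0.18) and by 1.00, 1.01, 1.35 and 0.97 for Cyp4f13 (SE 0.19). Cyp4v3, a mouse counterpart of human CYP4V2, fell in 3 (by 0.92, 0.52 and 0.60, and −0.16 in HepCAV1ko females, not called), and Cyp4f17 in HepCAV1wt males (by 0.92) and HepCAV1ko females (by 0.82). The rises called in the Cyp4 family were thus those of Cyp4a14, Cyp4a31 and, averaged over male genotypes, Cyp4a10.

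The genes whose pattern over the 24 arrays was most like a member's were ranked by Pearson's r among 12346 genes above the median level. For Cyp4a10 they were Akr1c20 (0.93), Ehhadh, the peroxisomal bifunctional enzyme (0.92), and Nr1i3, the receptor CAR (0.89). For Cyp4a14 they were Slc16a7, Slco1a4 and Abcb1a (0.93 each), all membrane transporters. For Cyp4a31 they were Car2 (0.93), Maoa (0.91) and Nhlrc2 (0.91). For Cyp4a12a they were the complement component C6 (0.96), Lama3 (0.94) and Cyp7b1 (0.93), an oxysterol hydroxylase. For Cyp4a12b they were Gm4450 (0.94), Lama3 (0.93) and the steroid dehydrogenase Hsd3b5 (0.93). The closest to Cyp4a32 reached only 0.80 (Haus1), 0.79 (Zfp975) and 0.78 (Thap6). The likeness follows differences between groups as well as within them.

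Ordered by group mean, Cyp4a14 was highest in MCD-fed HepCAV1wt females (12.30 ± 0.30, SD, n = 3) and lowest in control-fed HepCAV1wt males (6.05 ± 1.68). Only 1 of 7 steps in that order, from control-fed HepCAV1wt females (10.57 ± 0.46) down to control-fed HepCAV1ko males (6.39 ± 2.46), separated arrays without overlap. Cyp4a31 had 2 such steps: from MCD-fed HepCAV1ko males (9.25 ± 0.16) to control-fed HepCAV1ko females (7.83 ± 0.41), and from control-fed HepCAV1wt females (7.22 ± 0.64) to control-fed HepCAV1wt males (5.13 ± 1.74). Cyp4a12a also had 2, from control-fed HepCAV1ko males (8.81 ± 1.15) to MCD-fed HepCAV1wt males (5.82 ± 0.85) and from MCD-fed HepCAV1ko males (4.79 ± 1.26) to MCD-fed HepCAV1ko females (2.53 ± 0.19). Cyp4a12b had 1, from control-fed HepCAV1wt males (7.56 ± 1.13) to MCD-fed HepCAV1wt males (4.90 ± 0.21). Cyp4a10 and Cyp4a32 had none, so the arrays of neighbours in their orders always overlapped. In the diet and gender comparisons above, 11.5% to 23.3% of all genes had groups without overlap. Overlap of 3 arrays a group describes the spread and is not a test of a difference.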

How the data were processed

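The authors deposited log2 values of 24 arrays, background-corrected, quantile-normalised and summarised per gene by RMA according to the submitters' processing notes. The RMA version, the probe set definition and a genome build were not given in the sources used here. Array-wide quantile normalisation hides any global shift, and summarisation over shared probes can blend close relatives. Features were named through the platform annotation (24705 of 25428 had 1 symbol, 0 several and 723 none), and of 2 features for 1 symbol the brighter was kept, which left 24704 genes. limma 3.58.1 in R 4.3.3 fitted 1 mean per group (16 residual degrees of freedom) with empirical Bayes moderation; the script was tested on simulated data. The study's methods give a two-sided t-test at 0.05, which was run as an alternative. Pairs of genes were compared with exact permutations (scipy 1.17.1). The number of arrays limits the precision, and neither scan dates nor batches were given in the sources used here. Named genes were all 6 Cyp4a genes, up to 4 per list (those called in most of the 4 diet comparisons, ties by mean size of change) and the 3 most alike per member. Members and lists were chosen with earlier results of these data known. Saa1, Lcn2 and the genes shown beside them were chosen after their values were seen. The groups of 3 are too small to be screened for outlying arrays.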

Additional observations from a re-analysis of the deposited data

Results flagged for a closer look

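The diet response differed between the sexes, by the test of that difference itself (limma, adjusted over all genes), for 3 genes. The male minus female response was 3.78 log2 units for Cyp4a14, with all 6 MCD-fed males above all 6 control-fed males. Within a genotype, 20.7% of all genes in HepCAV1wt and 23.3% in HepCAV1ko males had diet groups without overlap. The female differences did not pass in the main fit. That of HepCAV1wt passed in a limma fit of those 2 groups alone (1.72, adjusted p = 0.00900). The female average over genotypes (1.36) passed in limma without HepCAV1ko control-fed male 1 (adjusted p = 0.0280) or without both control-fed male arrays numbered 3 (adjusted p = 0.0278). The call of the sex difference itself was lost in 9 alternative fits, 6 of them leaving out 1 array. For Cyp4a12a the male minus female response was −4.00, and its female arrays were all below the median of all genes. For Cyp4a12b it was −2.26, which passed narrowly and lost its call without any of 21 single arrays. The level from which each sex started on control diet also differed, and its part in the different responses was not tested.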

How the results depend on the processing

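Of 27 called results on single Cyp4a genes, 7 kept their call under every alternative, and 16 of 90 changed sign under one, none of them called either way. The methods' t-test at an unadjusted 0.05 called 8 diet rises and 9 male excesses, against 5 and 5 in the main fit, and after adjustment 0 rises, 0 falls (main 4), 1 male excess and 0 female excesses (main 3). The sex difference in the diet response (3 genes) was called for 1 gene without variance moderation, with an intensity trend and robust moderation, and with values floored at 3.83 (Cyp4a14 adjusted p 0.0970 to 0.119, Cyp4a12b 0.0697 to 0.169). Leaving out 1 array at a time gave 4 to 7 diet rises, 4 to 4 falls, 5 to 6 male and 2 to 4 female excesses, 1 to 3 sex differences in response, 0 to 0 genotype differences and 22 to 26 pairs. The causes were not tested. The replicate numbers were not taken to pair the arrays, since no label says so and same-numbered arrays deviated together in every pair (r above 0.1) in 1 of 12 comparisons, males against females on MCD diet in HepCAV1ko; the median r was 0.040 against −0.013 for other numbers, and 14 of 24 arrays correlated best with their own number, a hint from the data, not the design. A fit with the replicate number as a block called 5 rises, 4 falls, 5 male and 4 female excesses, 0 genotype differences and 3 sex differences in response; the added call was Cyp4a31 in control-fed HepCAV1ko (−2.71, adjusted p = 0.0401).

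With array weights, the Cyp4a10 diet effect in HepCAV1ko females was −0.0265, the Cyp4a31 genotype difference in control-fed males 0.31 and the Cyp4a32 sex difference in MCD-fed HepCAV1wt −0.0115. With the floor, the genotype difference was 0.16 for Cyp4a31 in control-fed males and 0.050 for Cyp4a12b in MCD-fed females. Without both control-fed male arrays numbered 3, an alternative added after seeing the data, it was 0.24 for Cyp4a31 and 0.28 for Cyp4a12a in control-fed males. Leaving out 1 array at a time gave ranges across 0 for the genotype difference in control-fed males of Cyp4a10 (−1.25 to 0.64), Cyp4a14 (−1.03 to 1.36), Cyp4a31 (−0.99 to 1.22), Cyp4a12a (−0.94 to 0.13) and Cyp4a12b (−0.60 to 0.73), in MCD-fed males of Cyp4a31 (−0.64 to 0.11) and Cyp4a12b (−0.27 to 0.16), and in MCD-fed females of Cyp4a10 (−0.31 to 0.13), Cyp4a14 (−0.20 to 0.063) and Cyp4a12b (−0.30 to 0.056). The same held for the diet effect of Cyp4a10 in HepCAV1ko females (−0.20 to 0.19) and of Cyp4a12a (−0.050 to 0.12) and Cyp4a32 (−0.57 to 0.28) in HepCAV1wt females, and for the sex difference of Cyp4a32 in MCD-fed HepCAV1ko (−0.23 to 0.55), control-fed HepCAV1ko (−0.47 to 0.65) and MCD-fed HepCAV1wt (−0.25 to 0.47).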
